A study of Mus musculus with 18 samples.

Results

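The genes described here are 10 regulators and receptors of lateral and cardiac mesoderm, Hand1, Hand2, Twist1, Twist2, Tbx5, Tbx20, Six2, Prdm6, Kdr and Pdgfra, which were taken by symbol from the 20703 genes measured by RNA-seq. The set was drawn up with earlier results of these data known, so its counts describe the 10 genes and are no independent evidence of a direction. RNA-seq was carried out on E14 mESCs, a mouse embryonic stem cell line kept undifferentiated with LIF, a cytokine, on feeder cells (mitotically inactivated mouse embryonic fibroblasts, MEFs). WT cells were compared with cells in which exon 5 of Nsd1, a methyltransferase of histone H3, had been deleted (Nsd1-KO). The KO cells were 2 clonal lines, KO-1 and KO-2, which according to the methods of the study were edited in E14 cells that already carried a Flag tag on Nsd1. Libraries were made at day 0, before LIF and MEFs were withdrawn, and at day 2 and day 4 after it, each line being represented by 2 biological replicates per day, that is 2 WT and 4 KO libraries per day and 18 in all. Since WT was 1 line and each KO line came from 1 clone, genotype and line cannot be told apart.

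Lateral mesoderm is the part of the early mesoderm from which the heart, the vessels, the blood and the body wall arise. Its cells leave the primitive streak, switch on the tyrosine kinase receptors Kdr and Pdgfra, and then express transcription factors of the basic helix-loop-helix (bHLH) family, such as the Hand and Twist proteins, and of the T-box family, such as Tbx5 and Tbx20. In mESC cultures, Kdr and Pdgfra are commonly used as surface markers of cells that have begun mesoderm differentiation.

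Library totals ran from 9309874 to 23921193 counts on genes, and the WT libraries of day 2, with 9309874 and 9356867 counts, were the shallowest. The deposited values were counts after a variance stabilizing transformation (VST), on a log2 scale on which a count of 0 has the value 8.36 and differences between weak genes are compressed. Because most of the 10 genes were weak, the counts behind the values were recovered and are given in the text, either as such or as normalized counts, that is, divided by the size factor of the library. A difference on the VST values was called where limma gave a log2 fold change beyond 0.58 in either direction together with a Benjamini-Hochberg adjusted p, taken over all genes, below 0.01, and limma-voom on the recovered counts was run beside it with the same thresholds. In bulk RNA, fewer cells that express a gene and less RNA per cell cannot be told apart.

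Nsd1 itself was checked first. WT cells had 3517 ± 202 normalized counts of Nsd1 at day 0, falling to 2268 ± 222 by day 4 (SD, n = 2), and KO cells had 718 ± 85.4 and 818 ± 236 (SD, n = 4). Each KO library lay below both WT libraries of its day. The counts cover the whole gene, so they do not show the deletion of exon 5.

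At day 4, all 10 genes were lower in every KO library than in both WT libraries, an arrangement that 25.9% of all genes showed at this day. On the VST values 6 of the 10 genes were called lower and 0 higher, Pdgfra, Six2, Kdr, Hand1, Prdm6 and Tbx20, against 3.91% of all genes called lower. On the recovered counts limma-voom called all 10 lower, against 13.0% of all genes. The median log2 fold change of the 10 genes at day 4 was -0.84 on the VST values and -3.93 in limma-voom, and that of all genes on the VST values was 0.00. Summed over the 10 genes, WT cells had 3078 ± 15.5 normalized counts at day 4 (SD, n = 2) and KO cells 431 ± 63.0 (SD, n = 4), whereas the sums at day 0 were 224 ± 3.15 and 228 ± 50.8.

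**Figure D1:**
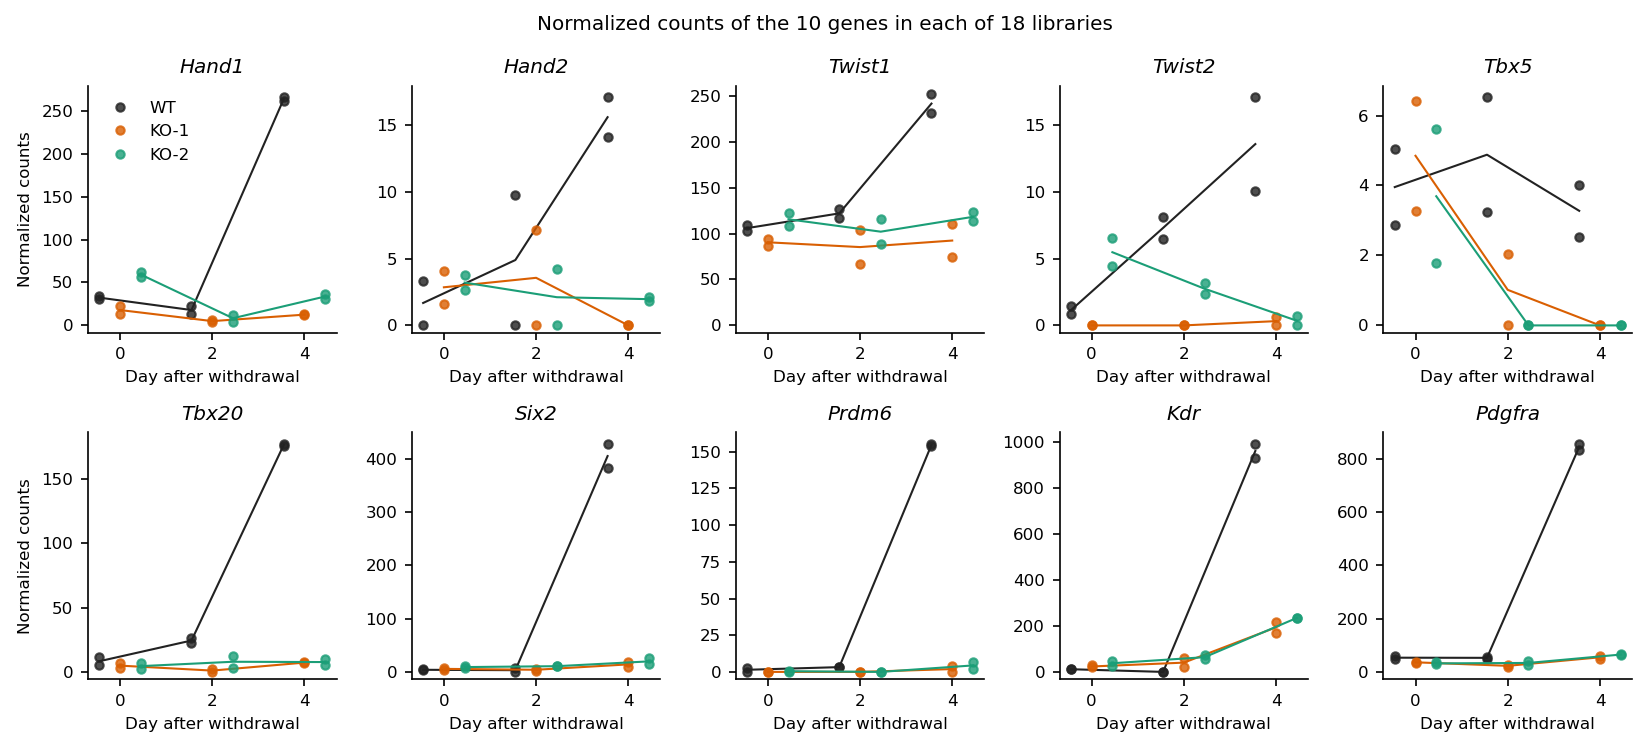
Normalized counts (y axis, linear, a different range in each panel) of each gene against the day after LIF and MEF withdrawal (x axis, lines offset sideways for legibility), with 1 point per library and lines through the mean of the 2 replicates of WT, KO-1 and KO-2. At day 4 both WT points lie above all 4 KO points in all 10 panels, and at day 2 both WT points of Kdr are at 0.

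The promoters of these genes are shown where they carry a feature to compare. RefSeq promoters (build GRCm38.p6, another build than the mm39 used for the counts) are described for 7 of the 10 genes. Hand1 and Tbx5 had no entry, and the promoter of Prdm6, a gene also called lower at day 4, is not reported here. The 250 bases before the gene start are printed for the 4 of them that were called lower at day 4, because CpG content, a property linked to how a promoter is held silent in stem cells, differed widely between them. Capitals mark CpG dinucleotides, and each sequence reads 5′ to 3′ on the strand of the gene:

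Six2 (chr17:85688255-85688504, minus strand): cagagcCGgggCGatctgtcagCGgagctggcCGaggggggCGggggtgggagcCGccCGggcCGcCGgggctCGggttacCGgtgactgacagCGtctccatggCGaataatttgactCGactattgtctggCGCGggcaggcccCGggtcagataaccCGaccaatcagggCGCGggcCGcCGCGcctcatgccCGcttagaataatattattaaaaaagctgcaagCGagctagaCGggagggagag

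Tbx20 (chr9:24774304-24774553, minus strand): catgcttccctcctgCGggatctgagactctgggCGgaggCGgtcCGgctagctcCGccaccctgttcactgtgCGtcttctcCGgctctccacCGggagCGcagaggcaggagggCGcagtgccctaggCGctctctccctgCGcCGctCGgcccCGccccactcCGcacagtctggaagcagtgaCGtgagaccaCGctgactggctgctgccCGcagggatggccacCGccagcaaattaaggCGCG

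Kdr (chr5:75978456-75978705, minus strand): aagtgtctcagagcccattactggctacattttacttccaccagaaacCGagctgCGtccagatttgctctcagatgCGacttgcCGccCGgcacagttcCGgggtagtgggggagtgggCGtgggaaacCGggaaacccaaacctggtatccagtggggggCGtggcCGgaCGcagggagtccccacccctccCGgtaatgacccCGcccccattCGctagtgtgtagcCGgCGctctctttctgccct

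Pdgfra (chr5:75152001-75152250, plus strand): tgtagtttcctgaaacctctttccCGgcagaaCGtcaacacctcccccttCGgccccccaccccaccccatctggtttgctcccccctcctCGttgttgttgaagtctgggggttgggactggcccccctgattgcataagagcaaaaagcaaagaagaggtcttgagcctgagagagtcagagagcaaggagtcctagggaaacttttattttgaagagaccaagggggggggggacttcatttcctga

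The Six2 window held 26 CpGs, more than 90.4% of the 32851 promoters, and the Tbx20 window held 22, and that of Kdr 16. In Pdgfra there were only 4, below the median of 6 over all promoters. Of the 7 genes whose promoter is described, 6 lay above that median, with 15 in Hand2, 18 in Twist1 and 23 in Twist2. The E-box CANNTG, the letters that bHLH factors can bind, was searched on both strands and was present in 3 of the 7 windows (Hand2, Kdr and Pdgfra), and 66.2% of all promoters held it. GATAA was present in Hand2 and Six2, and in 22.6% of all promoters, and the T-box letters GGTGTGA in 0 of the 7 and in 3.33% of all.

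Hand1 and Hand2 encode bHLH factors needed for the growth of the heart ventricles, and Hand1 also acts in extraembryonic mesoderm and trophoblast. Hand1 (ENSMUSG00000037335, chromosome 11) had 36 and 24 counts in the WT libraries of day 0, 14 and 8 at day 2, and 260 and 421 at day 4. Its counts at day 4 were 12 and 18 in KO-1 and 52 and 34 in KO-2. The groups did not overlap at day 4, the normalized counts being 264 ± 2.96 for WT (SD, n = 2) and 23.1 ± 12.4 for KO (SD, n = 4), 11.4-fold lower. The log2 fold change was -0.88 ± 0.08 (SE) on the VST values (limma, adjusted p = 8.8e-09) and -3.66 ± 0.36 in limma-voom. On the VST values the clones stood furthest apart in Hand1 at day 0 (on the recovered counts, the log2 difference in limma-voom was larger in Twist2 at that day, 3.36 against 1.63), with 8 and 28 counts in KO-1 and 64 and 66 in KO-2, on either side of WT per library size.

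Hand2 (ENSMUSG00000038193, chromosome 8) stayed weak throughout. WT libraries held 4 and 0 counts at day 0, 6 and 0 at day 2, and 14 and 27 at day 4. In KO cells there were 0 and 0 counts in KO-1 and 3 and 2 in KO-2 at day 4, and the groups did not overlap. From the pooled counts the ratio of WT to KO was 15.8, with an exact 95% interval of 6.26 to 51.3 that covers counting error only. On the VST values its log2 fold change was -0.26 ± 0.07 (SE; limma, adjusted p = 4.6e-03), short of the fold required, and -4.02 ± 0.90 in limma-voom. Annotation (GENCODE M21, GRCm38) places the noncoding RNA Hand2os1 on the opposite strand, over 461 bases or 19.6% of the exons of Hand2, and counts made without strand cannot tell the pair apart.

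Twist1 and Twist2 are bHLH factors of mesenchyme, and Twist1 is known for its part in epithelial-mesenchymal transition. Twist1 (ENSMUSG00000035799, chromosome 12) was the only one of the 10 genes over 100 normalized counts in WT cells at day 0, with 106 ± 4.96 (SD, n = 2), and KO cells had 103 ± 15.8 (SD, n = 4). WT libraries had 122 and 76 counts at day 0, 78 and 72 at day 2, and 230 and 398 at day 4, and the KO libraries of day 4 had 66 and 172 in KO-1 and 176 and 124 in KO-2. Per library size the groups of day 4 did not overlap, at 241 ± 14.0 normalized counts in WT and 105 ± 21.3 in KO, 2.29-fold lower. This gave a log2 fold change of -0.40 ± 0.06 (SE) on the VST values (limma, adjusted p = 1.1e-05), too small a fold to be called, and -1.19 ± 0.17 in limma-voom. Twist1 thus differed least by fold among the genes with more than 100 normalized counts.

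Twist2 (ENSMUSG00000007805, chromosome 1) had 1 and 1 counts in WT at day 0, 5 and 4 at day 2, and 17 and 16 at day 4. KO-1 held 0 and 1 counts at day 4 and KO-2 held 1 and 0, so the groups were far apart in spite of the low counts. The pooled ratio of WT to KO was 31.8, with an exact 95% interval of 8.14 to 274. At day 0, KO-2 had 5 and 7 counts of Twist2 while both KO-1 libraries had 0. The antisense gene Gm29100, which is not among the genes measured, covers 46.5% of the Twist2 exons in the annotation. Reads from the shared bases, if any, cannot be assigned to either gene without strand. How such reads were counted is not known here.

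Tbx5 and Tbx20 are T-box factors of the heart, and Tbx5 is also needed for the forelimb. Tbx20 (ENSMUSG00000031965, chromosome 9) had 6 and 8 counts in WT at day 0, 16 and 14 at day 2, and 176 and 278 at day 4. Its KO counts at day 2 were 0 and 2 in KO-1 and 4 and 12 in KO-2, and at day 4 they were 6 and 12 in KO-1 and 14 and 6 in KO-2. The groups overlapped neither at day 2 nor at day 4. Normalized counts at day 4 were 176 ± 1.11 in WT (SD, n = 2) and 7.43 ± 1.82 in KO (SD, n = 4), 23.7-fold lower. On the VST values the log2 fold change was -0.82 ± 0.06 (SE; limma, adjusted p = 2.1e-10) at day 4. At day 2 it was -0.26 ± 0.06 (adjusted p = 8.8e-04), too small a fold to be called, and -3.20 ± 0.70 in limma-voom (adjusted p = 1.0e-03), which called it.

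Tbx5 (ENSMUSG00000018263, chromosome 5) did not rise in WT. It had 6 and 2 counts at day 0, 4 and 2 at day 2, and 4 and 4 at day 4 in WT, whereas KO cells had 2 to 6 counts at day 0 and 0 in all 4 libraries at day 4. The KO counts at day 2 were 0 and 2 in KO-1 and 0 and 0 in KO-2. Against the floor of 3 counts per library, KO was at least 1.29-fold lower at day 4, so the depth allows little to be said about the size. The log2 fold change at day 4 was -0.14 ± 0.04 (SE) on the VST values (limma, adjusted p = 0.010) and -3.08 ± 0.78 in limma-voom (adjusted p = 3.1e-03).

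Six2 is a homeobox gene of the head mesenchyme and of the progenitors of the kidney. Six2 (ENSMUSG00000024134, chromosome 17) had 6 and 2 counts in WT at day 0, 0 and 4 at day 2, and 380 and 678 at day 4. The KO libraries of day 4 had 8 and 30 counts in KO-1 and 20 and 28 in KO-2. At day 4 no KO library came near WT, the normalized counts being 405 ± 32.3 for WT (SD, n = 2) and 16.9 ± 7.08 for KO (SD, n = 4), 23.9-fold lower, whereas at day 0 and day 2 the groups overlapped. The log2 fold change at day 4 was -1.21 ± 0.06 (SE) on the VST values (limma, adjusted p = 8.8e-13).

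Prdm6 encodes a protein of the PR-domain family that acts in smooth muscle and the cardiovascular system. Prdm6 (ENSMUSG00000069378, chromosome 18) had 0 and 2 counts in WT at day 0, 2 and 2 at day 2, and 153 and 246 at day 4. KO-1 had 0 and 6 counts at day 4 and KO-2 had 10 and 2. Of the genes with more than 3 counts in some library of both groups, Prdm6 had the largest fold at day 4, the normalized counts being 155 ± 0.964 for WT (SD, n = 2) and 3.17 ± 3.00 for KO (SD, n = 4), 48.8-fold lower, and the log2 fold change was -0.85 ± 0.05 (SE) on the VST values (limma, adjusted p = 1.7e-11).

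Kdr, the main receptor for VEGF on endothelial cells, marks the mesoderm that gives rise to blood, vessels and heart. Kdr (ENSMUSG00000062960, chromosome 5) was the most abundant of the 10 genes by counts, with 984 and 1471 in WT at day 4, after 14 and 8 at day 0 and 0 and 0 at day 2. KO cells had 192 and 266 counts in KO-1 and 336 and 256 in KO-2 at day 4. WT had 959 ± 43.4 normalized counts (SD, n = 2) and KO 214 ± 30.2 (SD, n = 4), 4.49-fold lower, and the log2 fold change was -1.10 ± 0.07 (SE) on the VST values (limma, adjusted p = 8.3e-11).

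At day 2 the order of the groups was the opposite. KO-1 had 20 and 60 counts of Kdr at day 2 and KO-2 had 72 and 68, against 0 in both WT libraries, which at their depth allows up to 4.89 and 4.86 normalized counts. Against that floor Kdr was at least 10.7-fold higher in KO. Its log2 fold change at this day was 0.56 ± 0.07 (SE) on the VST values (limma, adjusted p = 2.6e-06), just short of the fold required, and 5.86 ± 1.32 in limma-voom (adjusted p = 1.3e-03), which called it. All 4 KO libraries also lay above both WT libraries at day 0, with 30.6 ± 12.6 normalized counts (SD, n = 4) and 11.6 ± 0.164 (SD, n = 2), a difference that was not called (limma, adjusted p = 0.10). Every KO library lay above both WT libraries in 23.1% of all genes at day 0 and in 26.2% at day 2.

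Pdgfra, a receptor for PDGF, is found on early mesoderm and on many mesenchymal cells, fibroblasts included. Pdgfra (ENSMUSG00000029231, chromosome 5) had 69 and 34 counts in WT at day 0, 35 and 30 at day 2, and 852 and 1319 at day 4. KO counts at day 4 were 53 and 78 in KO-1 and 91 and 73 in KO-2. Unlike the other 9 genes, Pdgfra lay below WT in every KO library at day 0 as well as at day 2 and day 4. The normalized counts were 53.4 ± 6.33 in WT and 34.0 ± 4.27 in KO at day 0, 52.8 ± 5.95 and 28.2 ± 8.94 at day 2, and 845 ± 17.3 and 60.0 ± 7.24 at day 4 (SD, n = 2 and 4), 14.1-fold lower at day 4. The log2 fold change at day 4 was -1.51 ± 0.05 (SE) on the VST values (limma, adjusted p = 5.4e-16), the largest of the 10 genes on that scale, and at day 0 and day 2 it was not called.

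**Figure D2:**
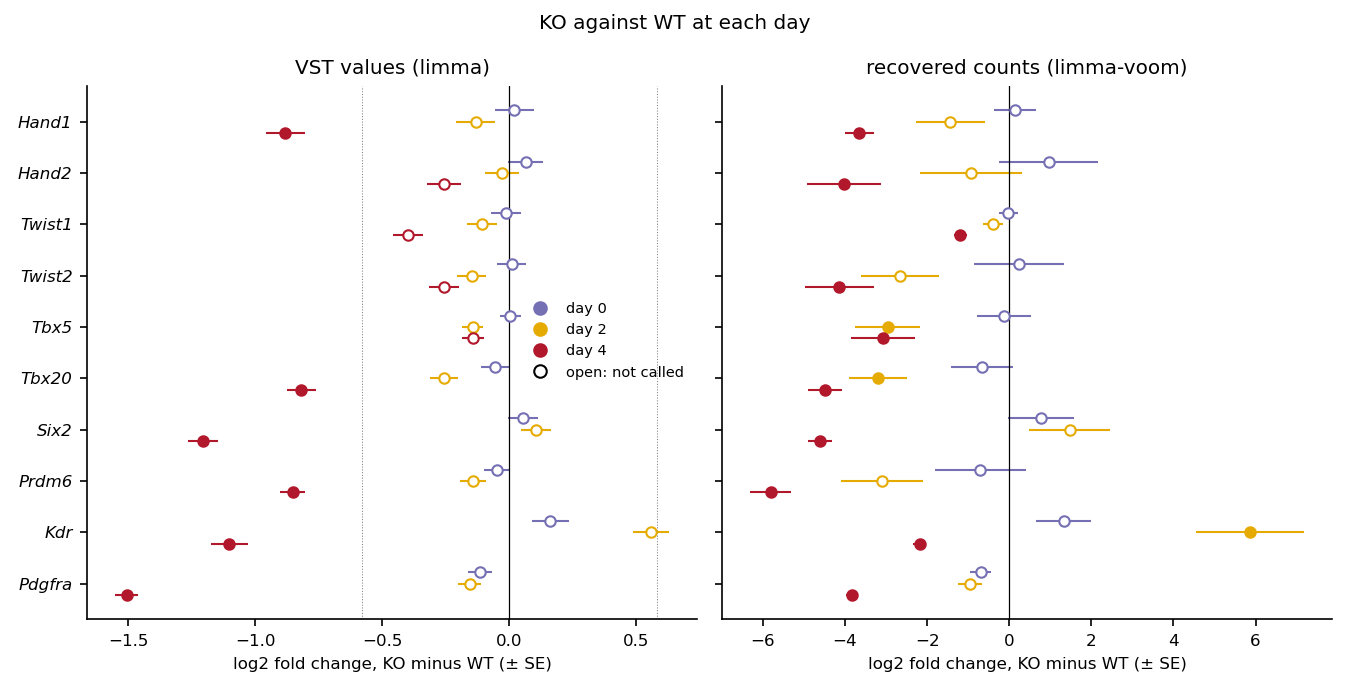
log2 fold changes, KO minus WT (x axis, points, with bars for ± SE), of each gene at day 0, day 2 and day 4 from limma on the VST values (left, dotted lines at ± 0.58) and from limma-voom on the recovered counts (right), with filled points for called differences. The day 4 points of all 10 genes lie to the left of 0 in both panels, and the day 2 point of Kdr lies to the right of 0.

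Taking the days in turn, 0 of the 10 genes were called in either direction at day 0 on the VST values (2 had an unadjusted p under 0.05, as did 39.4% of all genes), where 0.879% of all genes were called lower and 1.73% higher, and limma-voom also called 0 lower, against 6.86% of all genes. At day 2 again 0 were called on the VST values (6 with an unadjusted p under 0.05, as had 52.3% of all genes), against 2.37% of all genes called lower and 4.01% higher. Without the first KO-1 library of day 2, Kdr was called higher (log2 fold change 0.63). limma-voom called Tbx5 and Tbx20 lower at day 2, against 13.6% of all genes, and Kdr higher, against 10.3%. The KO libraries were all lower than both WT libraries in 1 gene at day 0 (Pdgfra) and in 7 at day 2 (Hand1, Twist1, Twist2, Tbx5, Tbx20, Prdm6 and Pdgfra), compared with 24.3% and 31.4% of all genes. The smallest one-sided p of an exact permutation test of a single gene with 4 libraries against 2 is 0.0667. Doubled for a two-sided test, as was done here, it is 0.133, and the test gave 0.133 for each of these genes.

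The second question was how each genotype changed with time. In WT cells 6 of the 10 genes were called higher at day 4 than at day 0, against 7.68% of all genes, namely the genes that were called lower in KO at day 4, and the same 6 were called higher at day 4 than at day 2, against 5.69%. limma-voom added Twist1, for 7 of 10, against 17.1% of all genes. Six2 had the largest fold of those with more than 3 counts at day 0, with 102-fold higher normalized counts at day 4 than at day 0, followed by Kdr with 82.5-fold, Tbx20 with 21.3-fold, Pdgfra with 15.8-fold and Hand1 with 8.15-fold. For Prdm6, which had 2 counts in all at day 0, the ratio of pooled counts was 146, with an exact 95% interval of 40.2 to 1210.5. Tbx20 had 5.03 and 11.5 normalized counts in the WT libraries of day 0, so its folds against day 0 depend on which are included. Most of the rise of the 6 called genes came between day 2 and day 4. Tbx20 was 2.95-fold higher in WT at day 2 than at day 0, which was not called (log2 fold change 0.17 ± 0.07, SE; limma, adjusted p = 0.046).

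In KO cells Kdr alone was called higher at day 4 than at day 0, against 3.44% of all genes. Its normalized counts were 6.99-fold higher, and the log2 fold change was 0.70 ± 0.06 (SE; limma, adjusted p = 3.4e-09). limma-voom called Kdr and Pdgfra higher, against 12.7% of all genes, and Tbx5 lower, against 14.8%. The rise of Pdgfra in KO cells was 1.76-fold (log2 fold change 0.82 ± 0.21, SE, in limma-voom, adjusted p = 2.5e-03), compared with 15.8-fold in WT. Hand1 fell 5.78-fold from day 0 to day 2 in KO cells, with a log2 fold change of -0.27 ± 0.06 (SE; limma, adjusted p = 2.0e-03) that did not pass the threshold on the VST values. limma-voom called Hand1 and Tbx5 lower in KO cells at day 2 than at day 0 (log2 fold changes -2.41 and -2.58, adjusted p = 3.7e-03 and 4.8e-03), against 9.20% of all genes.

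An interaction contrast in the same fit tested whether the effect of KO at day 4 was another than at day 0, and called 6 of the 10 genes, all toward lower values in KO at day 4, against 4.13% of all genes. The difference between the effects was -1.39 ± 0.06 for Pdgfra, -1.26 ± 0.10 for Kdr, -1.26 ± 0.08 for Six2, -0.90 ± 0.11 for Hand1, -0.80 ± 0.07 for Prdm6 and -0.76 ± 0.08 for Tbx20 (log2 on the VST values, SE). The adjusted p in limma ranged from 1.6e-12 for Pdgfra to 2.1e-06 for Hand1. These contrasts share the libraries of day 4 with the comparison of KO and WT at that day and are not separate evidence.

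**Figure D3:**
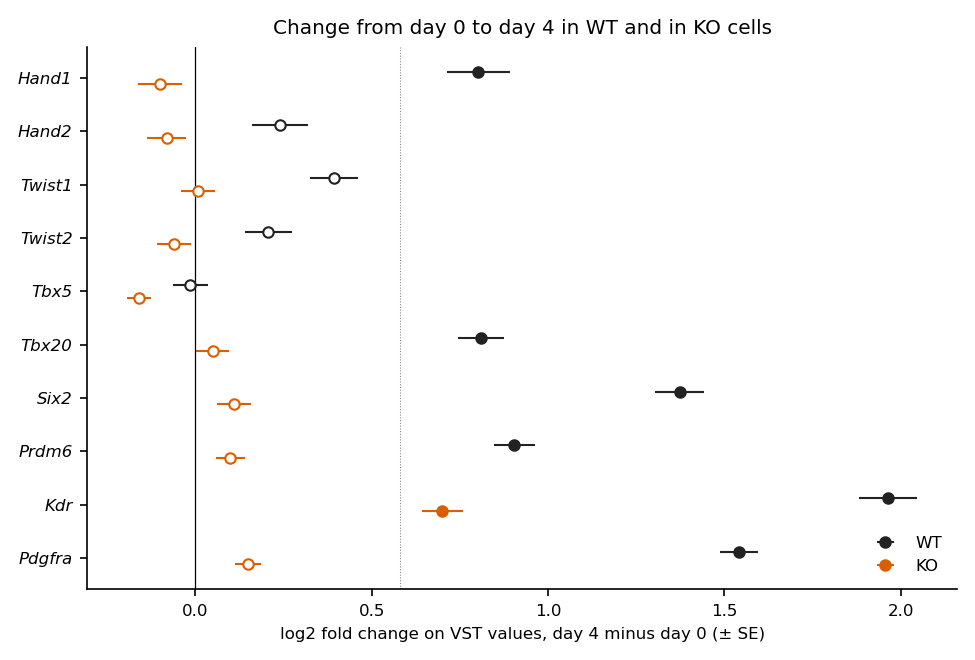
log2 fold changes on the VST values, day 4 minus day 0 (x axis, points, with bars for ± SE), in WT (black) and KO cells (orange) for each gene, with filled points for called changes and a dotted line at 0.58. WT points of 6 genes lie to the right of the dotted line, and among the KO points only that of Kdr does.

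KO-1 and KO-2 were set against each other in a second fit with each clone as its own group. Of the 10 genes, 0 were called between KO-2 and KO-1 at any day, where 0.0290% of all genes were called at day 0, 0.0435% at day 2 and 0.251% at day 4 (for the 10 genes, 2, 2 and 1 had an unadjusted p under 0.05, and of all genes 14.8%, 12.3% and 25.3%, and limma-voom also called 0). Hand1 had the smallest p at day 4 and was higher in KO-2, with a log2 difference of 0.18 ± 0.05 (SE; limma, adjusted p = 0.033), and at day 0 the difference was 0.28 ± 0.05 (adjusted p = 0.020).

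To compare levels between genes, normalized counts were divided by the merged exon length of each gene in GENCODE M21. In WT at day 4, Six2 was the most abundant per kb, with 191 normalized counts per kb, followed by Twist1 with 148, Hand1 with 132, Kdr with 106, Pdgfra with 84.3, Prdm6 with 44.5, Tbx20 with 14.7, Hand2 with 6.62, Twist2 with 4.29 and Tbx5 with 0.701. The 2 WT libraries gave ranges that did not overlap between neighbours in this order. In KO at day 4 the order was led by Twist1 with 64.6 normalized counts per kb, with Kdr at 23.7, Hand1 at 11.6, Six2 at 8.0 and Pdgfra at 5.99, and the other 5 genes were under 1. There the ranges of Hand1, Six2 and Pdgfra overlapped (5.78 to 18.2, 4.26 to 12.1 and 4.99 to 6.64 per kb over 4 libraries).

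Other genes of the same developmental programme were examined as lists. Of 33 measured cardiac and lateral mesoderm regulators, 11 were called lower in KO at day 4 and 0 higher on the VST values, with a median log2 fold change of -0.41, and limma-voom called 18 lower and 3 higher. At day 0, 0 of the 33 were called on the VST values. limma-voom called 11 lower and 1 higher at that day, against 1421 and 1331 of the 20703 genes. On the VST scale the largest falls among them were those of Wnt5a, a Wnt ligand of the streak and mesoderm (from 2040 ± 158 normalized counts in WT to 44.3 ± 6.19 in KO), of Bmp2, a ligand of the BMP pathway (781 ± 36.7 to 6.33 ± 2.21), and of Mesp1, a bHLH factor at the head of the cardiac lineage (608 ± 56.8 to 0.320 ± 0.641). Snai1, a repressor of epithelial genes, had 1325 ± 33.3 in WT and 145 ± 26.5 in KO, and Gata4, a factor of heart and endoderm, 700 ± 41.1 and 35.2 ± 10.004. All 5 were called lower in limma, with log2 fold changes from -2.49 to -1.49 on the VST values. The counts of these and the following lists at day 4 stand against 3.91% of all genes called lower and 3.67% higher on the VST values, and 13.0% and 10.9% in limma-voom, so that 1 call by limma-voom in a list of 6 to 10 genes is near the share of all genes.

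The contractile genes that such regulators switch on later were mixed. Of 13 cardiomyocyte contractile genes, Actc1 was called lower in KO at day 4 (548 ± 40.5 normalized counts in WT and 67.1 ± 25.5 in KO), and Myh6 and Ttn were called higher (113 ± 5.75 and 654 ± 118 for Myh6, 26.6 ± 3.46 and 332 ± 48.3 for Ttn). The median log2 fold change of that list was -0.07, and limma-voom called 3 lower and 4 higher. Before day 4 the summed list was already higher in KO. The sums were 515 ± 71.3 normalized counts in WT and 1311 ± 123 in KO at day 0, and 627 ± 11.6 and 1717 ± 149 at day 2. On the VST values 2 genes were called higher and 0 lower at each of these days, against 1.73% of all genes called higher at day 0 and 4.01% at day 2.

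A list of 15 genes held ligands and receptors of the VEGF and PDGF pathways other than Kdr and Pdgfra, and the receptor Kit. Of these, 5 were called lower at day 4 and 2 higher, with a median of 0.07. limma-voom called 7 lower and 4 higher, with Kit among the higher. Pdgfb, a ligand of both PDGF receptors, fell from 1690.4 ± 21.6 normalized counts in WT to 162 ± 47.5 in KO, and Pdgfrb, the partner receptor of Pdgfra, from 457 ± 21.1 to 26.0 ± 16.7. Nrp2, a co-receptor for VEGF, was at 2932 ± 241 in WT and 1084 ± 163 in KO, and Pgf, a ligand of the VEGF family, at 274 ± 26.4 and 32.3 ± 11.9. Pdgfc, another ligand of Pdgfra, went the other way, from 104 ± 0.334 in WT to 655 ± 54.4 in KO. Vegfa, the main ligand of Kdr, was not called at day 4 on the VST values and was called lower in limma-voom, with 201 ± 16.2 normalized counts in WT and 100.9 ± 14.1 in KO.

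Of 15 blood and endothelial progenitor genes, 0 were called lower at day 4 and 3 higher, with a median log2 fold change of 0.23. These were Tek, a receptor for angiopoietins (29.4 ± 4.02 normalized counts in WT and 954 ± 69.1 in KO), Eng, a co-receptor of the TGF-β family (334 ± 26.5 and 1365 ± 146), and Pecam1, an adhesion molecule that stem cells express too (15.3 ± 1.65 and 186 ± 30.4). On the recovered counts limma-voom called 8 of the 15 higher, against 10.9% of all genes, and 2 lower, a share near the 13.0% of all genes. The 2 lower genes were Cdh5, an adhesion molecule of endothelial cells (46.1 ± 2.62 normalized counts in WT and 2.15 ± 1.09 in KO), and Runx1, a factor of blood formation (83.6 ± 1.48 and 13.5 ± 1.88).

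E proteins are the partners with which the Hand and Twist factors bind DNA, and Id proteins block them. Of these 7 genes, 1 was called at day 4, Tcf12, with 1649.7 ± 16.3 normalized counts in WT and 4174 ± 63.5 in KO. Of 7 paraxial mesoderm genes, Msgn1 was called lower (1093 ± 110 normalized counts in WT, and 0 in all KO libraries) and Tcf15, a factor of somites that is also present in stem cells, higher (131 ± 11.4 and 605 ± 195). limma-voom called 2 higher and 0 lower among the E and Id proteins, and 3 lower and 1 higher among the paraxial genes.

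**Figure D4:**
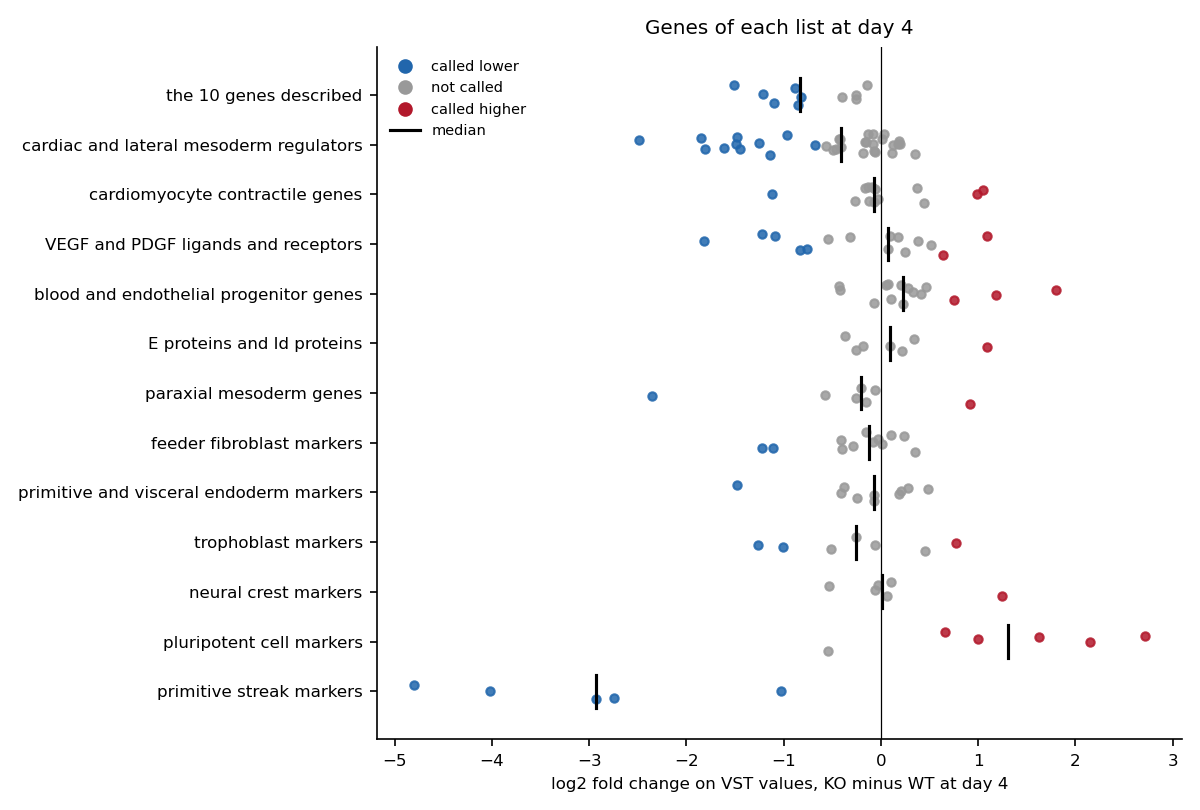
log2 fold changes on the VST values, KO minus WT at day 4 (x axis), of each measured gene (points, spread vertically at random) in the lists named on the y axis, coloured by whether limma called the gene, with a black bar at the median of each list. The bars of the primitive streak markers and of the 10 genes lie furthest to the left, at -2.93 and -0.84, and that of the pluripotent cell markers furthest to the right, at 1.31.

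Markers of the cell types that the cultures could hold were read beside these results. All 5 primitive streak markers were called lower in KO at day 4, with a median log2 fold change of -2.93, and T, the most abundant of them, had 16248 ± 272 normalized counts in WT and 140 ± 90.4 in KO. Their summed normalized counts at day 4 were 31811 and 30713 in WT, 856 and 870 in KO-1, and 328 and 394 in KO-2. Of 6 pluripotent cell markers, 5 were called higher at day 4, in both fits, with a median of 1.31 on the VST values. The sixth, Pou5f1, had 5417 ± 72.0 normalized counts in WT and 3537 ± 214 in KO, was not called on the VST values and was called lower in limma-voom. Sox2, the most abundant over all libraries, had 235 ± 25.01 in WT and 4293 ± 198 in KO. The summed level of that list was 8156 and 8122 in WT, 16272 and 16826 in KO-1, and 15404 and 14762 in KO-2. Streak markers were thus lower, and 5 of the 6 stem cell markers higher, in the KO cells of day 4, in which the 10 genes were lower, and the part of the share of such cells in the fall of the 10 genes was not tested.

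Per the labels, cells grew on feeder cells until these were withdrawn, and how many feeder cells each library of day 0 held is not given. Of 12 feeder fibroblast markers, 4 were called higher in KO at day 0 and 1 lower, against 1.73% and 0.879% of all genes. The median log2 fold change was 0.28. limma-voom called 6 higher and 1 lower, against 1331 and 1421 of the 20703 genes. The sums were 4269 and 3995 normalized counts in WT, 6647 and 6581 in KO-1, and 7576 and 7663 in KO-2. The most abundant, Col1a1, had 1482 ± 15.8 in WT and 2732 ± 290.3 in KO, and Lum was at 0 in all 6 libraries of that day. Twist1, Twist2 and Pdgfra are themselves fibroblast genes. Their part in the day 0 values that comes from MEFs was not tested. At day 4, 2 of the 12 markers were called lower in KO, Col1a1 and Pdgfrb, and 0 higher, with a median of -0.12 (5 lower and 2 higher in limma-voom), and the sums were 3014 and 2850 in WT, 927 and 889 in KO-1, and 1649.8 and 1554 in KO-2. Pdgfrb is also in the list of VEGF and PDGF genes above. At day 2 the sums were 1476 and 1308 in WT, 933 and 914 in KO-1, and 1067 and 1068 in KO-2. The WT sum thus rose again after the feeder cells were withdrawn, and which cells it came from was not tested.

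**Figure D5:**
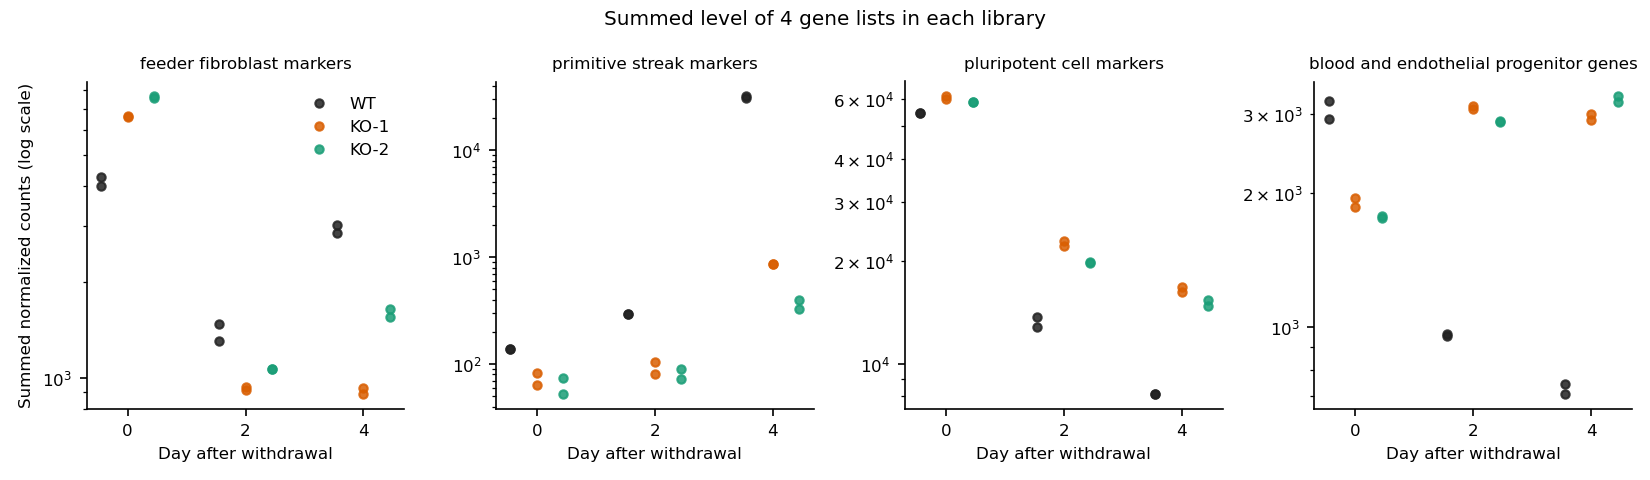
Summed normalized counts (y axis, log scale) of 4 gene lists in each of the 18 libraries (1 point each) against the day after LIF and MEF withdrawal (x axis, lines offset sideways), coloured by line. At day 4 both WT points lie above all KO points for the feeder fibroblast and primitive streak markers and below them for the pluripotent cell markers and the blood and endothelial progenitor genes.

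In 3 further marker lists, calls on the VST values were few or in both directions. limma-voom called 4 lower and 1 higher of the 10 endoderm markers, and 4 and 2 of the 7 trophoblast markers. Of the 6 neural crest markers it called 1 and 1. The shares of all genes were 13.0% lower and 10.9% higher, so the endoderm and trophoblast markers had more lower calls than all genes. Of 10 primitive and visceral endoderm markers, Gata6 alone was called lower at day 4 (543 ± 41.9 normalized counts in WT and 12.2 ± 6.96 in KO), with a median of -0.07, and their most abundant gene, Dab2, had 475 ± 29.1 and 259 ± 78.0. Of 7 trophoblast markers, Cdx2 (1098 ± 20.3 and 204 ± 65.4) and Krt7 (317 ± 30.6 and 20.8 ± 6.71) were called lower, and Tfap2c, the most abundant, higher (251 ± 5.33 and 747 ± 175), with a median of -0.25. Of 6 neural crest markers, Foxd3, also the most abundant, was called higher (15.5 ± 2.27 and 424 ± 84.4), with a median of 0.02.

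The genes whose VST values followed each gene most closely over the 18 libraries were found by Pearson correlation, for the 7 genes with a group mean over 100 normalized counts. The 21 coefficients ran from 0.936 to 0.994. The libraries share days and genotypes. The coefficients therefore rest in part on the high values of WT at day 4, for some pairs of genes more than for others. Without those 2 libraries, a choice made after the values were seen, they ran from 0.500 to 0.959. Pdgfra was followed most closely by Gbp2b (r = 0.994), Evx1 (0.993) and Gbp2 (0.993). Gbp2b and Gbp2 are members of the same gene family, and whether they share reads was not tested. The closest for Six2 were Ccn4 (0.989), Klhl6 (0.984) and Evx1os (0.982), and for Prdm6 they were Arsi (0.984), Gbp2b (0.984) and Adra2a (0.983). Tbx20 was followed by Adcy2 (0.983) and Atl2 (0.979), Hand1 by Anxa5 (0.974), Tinagl1 (0.971) and Zfp503 (0.968), and Twist1 by Arsi (0.940), Snx7 (0.936) and Myl12a (0.936).

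Kdr was followed by Lrp10 (r = 0.987), Cttn (0.976) and Tgfb1i1 (0.972), whose coefficients without the WT libraries of day 4 were 0.959, 0.944 and 0.909. Of the 19 different genes found by their likeness, 17 were called lower in KO at day 4 (3.91% of all genes), which follows from choosing them by their likeness over the same libraries, and Lrp10 and Cttn were not.

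Position along the chromosomes was compared as well. Pdgfra and Kdr lie on either side of Kit on chromosome 5, and Kit, a receptor of the same family that stem cells express, was not called at day 4 on the VST values, with 95.3 ± 0.978 normalized counts in WT and 289 ± 118 in KO. Of the 19 nearest measured protein-coding neighbours of the 10 genes, 1 was called lower at day 4 and 0 higher on the VST values, a share near the 3.91% of all genes called lower. The gene called was Ppic, beside Prdm6, with means of 506 normalized counts in WT and 57.6 in KO. limma-voom called 2 lower, Ppic and Tbx3, and 2 higher, Kit and Hdac9, shares near those of all genes.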

How the data were processed

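RNA-seq was carried out on E14 mESCs, WT or with a deletion of exon 5 of Nsd1 in 2 clonal lines, in 18 libraries. Total RNA was extracted with a column kit, and poly-A selected libraries were made, per the labels, with a TruSeq v2 kit that does not mark strand. Groups and replicate numbers came from the labels.

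The authors trimmed reads with Trim Galore 0.6.7, aligned them to mm39 with STAR 2.7.11a, counted them on exons with featureCounts 2.0.6, removed genes with low average counts, and deposited variance stabilized values of DESeq2 1.42.0, that is, 20703 genes with values on a log2 scale. The transformation was inverted, and 100% of the values came out as whole counts (within 0.01), from which the authors' size factors followed. Total counts per library lay between 9309874 and 23921193 (median 15721348). Of the counts from 1 to 20, between 72.5% and 77.5% per library were even, for a cause not known here, so intervals and floors, which cover counting error only, may be too narrow. A group at 0 was set to a floor of 3 counts per library before a fold was taken, and a group with 1 to 3 counts per library was compared by pooled counts with an exact (Clopper-Pearson) 95% interval.

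VST values were fitted with limma 3.58.1 in R 4.3.3 (trended prior variance, 6 groups of genotype and day, both clones pooled as KO, Benjamini-Hochberg adjustment over all genes), and genes were called by the study's thresholds (adjusted p 0.01, log2 fold change 0.58 in either direction). limma-voom on the recovered counts was run beside it because weak genes are compressed on the VST scale, and clones were compared in a fit of 9 groups. Both fits were tested on simulated data, and the outcome is not reported here. The p-values measure the spread between cultures of 3 lines. GENCODE M21 (GRCm38) gave exon lengths, overlaps and neighbours, and promoters came from RefSeq on GRCm38.p6, with Python 3.11.15 and matplotlib 3.10.9.

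The 10 genes and the gene lists were chosen with earlier results of these data known, and the lists are therefore no independent support. From each list the text names up to 5 genes with the largest change among those called at day 4, and the most abundant gene of each marker list, and for each of the 10 genes with a group mean over 100 normalized counts the 3 genes with the highest Pearson r, of which 1 is not reported here. Vegfa, Cdh5, Runx1, Pou5f1, Kit, Lum, Ppic, Tbx3 and Hdac9 were named after their values were seen. Alternatives were other thresholds, scalings, filters, clone groupings, a replicate block and each library left out in turn. Other assays of the study were not analysed here.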

Additional observations from a re-analysis of the deposited data

Results flagged for a closer look

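For 6 of the 10 genes the effect of KO differed between day 4 and day 0 by the interaction contrast (limma, log2 on the VST values). The difference between the effects was -1.39 for Pdgfra, -1.26 for Kdr, -1.26 for Six2, -0.90 for Hand1, -0.80 for Prdm6 and -0.76 for Tbx20. In 2 sets of 4 KO libraries 1 library stood apart from the other 3, with a gap equal to the whole range (a Dixon ratio of 1). These were Prdm6 at day 0, where 1 library had 1 count and the other 3 had 0, and Tbx5 at day 2, where 1 library had 2 counts and the other 3 had 0. With 3 libraries at 0 and 1 above it, the ratio is 1 whatever the count, and how often chance gives this was not tested. Both sets rest on counts at or under the floor of 3.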

How the results depend on the processing

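Leaving out each library in turn changed none of the counts of genes called lower in KO (6 of 10 at day 4, 0 at day 2 and day 0) or higher in KO at day 0 (0), nor the other counts of called genes (6 higher in WT and 1 in KO at day 4 against day 0, 6 with a different KO effect, 0 between clones), but the count called higher in KO at day 2 ranged from 0 to 1. The replicate numbers did not pair the samples throughout, since the differences between replicates correlated at -0.61 to 0.64 over 36 pairs of groups, but within day 2 the 3 pairs of groups correlated at 0.37 to 0.48. The replicate block gave 6 genes lower at day 4, and 0 in either direction at day 2, and so did a replicate block within each day, which was chosen after seeing the data, with no call changed by either. Keeping genes whose mean was in the upper part of the range (above percentile 25) left 6 of the 10 genes, of which 5 were called lower at day 4, as Prdm6 was among the 4 not tested. limma-voom called 10 lower at day 4, 2 lower and 1 higher at day 2 and 2 higher in KO at day 4 than at day 0. With no fold threshold, an adjusted p under 0.05 called 10 lower at day 4, 5 lower and 1 higher at day 2. It also called 2 higher in KO at day 4 than at day 0 and 1 between the clones at day 4 (Hand1). An adjusted p under 0.01 called 9, 3, 1 and 2 in the first 4 of these counts. Under the first rule the shares of all genes were 19.2%, 24.2%, 21.8%, 22.9% and 12.8%, and under the second 14.6%, 17.5%, 16.6% and 18.4%. Between the clones at day 0, Hand1 also passed the first rule (limma, adjusted p = 0.020), against 0.551% of all genes. Kdr, the 1 gene called higher at day 2 under these settings, also passed the fold threshold with KO-2 alone (0.63), after quantile normalization (0.58), after centring on the median (0.61) and without KO-1 replicate 1 of day 2 (0.63), and its lower bound was 21.4-fold with the floor of 3 counts set over both WT libraries together. Of 918 log2 fold changes recomputed, 867 kept their direction and their side of the thresholds, 28 became called, 0 lost their call and 23 changed sign, all of them uncalled values at day 0 or day 2. At day 0, limma-voom gave -0.13 for Tbx5, KO-1 alone gave -0.12 for Hand1 and -0.084 for Twist2, KO-2 alone gave 0.035 for Twist1 and -0.0095 for Tbx5, and for Twist1 quantile normalization gave 0.0011 and centring 0.00645. Centring gave 0.023 for Hand2 at day 2. With 1 library left out, the values at day 0 ranged from -0.031 to 0.081 for Hand1, -0.0094 to 0.14 for Hand2, -0.037 to 0.0082 for Twist1, -0.028 to 0.040 for Twist2, -0.018 to 0.025 for Tbx5 and -0.12 to 0.019 for Prdm6, and at day 2 from -0.15 to 0.094 for Hand2. The cause was not tested for these changes. Depth is one limit for the weak genes, since a count of 0 in the WT libraries of day 2 allows nearly 5 normalized counts.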
